A study of Mus musculus with 16 samples.

Results

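The 39 genes described here are markers of the brain's blood vessels: 32 genes of endothelial cells and the blood-brain barrier, and 7 genes of mural cells, the pericytes and smooth muscle cells that wrap the vessel wall. They were taken by symbol from the expression table, whichever way they moved, and all 39 were found among its 23284 genes. All 39 also passed the filter for the test, a mean of at least 0.5 FPKM, the fragments of a gene scaled to its length and to the depth of the library, over the libraries, which left 13978 genes. RNA from the prefrontal cortex (PFC) of 16 young adult mice of both sexes was sequenced, 4 libraries for each of 4 genotypes. APC cKO mice were homozygous for floxed Apc (APC fl/fl). In β-cat cOE mice one Ctnnb1 allele carried a floxed exon whose loss stabilizes β-catenin (Ctnnb1 fl(ex3)/+). APC/β-cat cKO mice were homozygous for both floxed Apc and floxed Ctnnb1. In all 3 lines Cre was driven by the CamKIIα promoter, which acts mainly in forebrain excitatory neurons, and recombination in vascular cells was not tested. Controls were littermates without Cre, combined from the lines.

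Brain endothelial cells form the blood-brain barrier with tight junctions, a low rate of vesicle traffic, nutrient carriers and efflux pumps. Canonical Wnt signalling induces and maintains this state: Wnt7a and Wnt7b from neural cells and Norrin act on endothelial Frizzled receptors, and β-catenin then raises barrier genes such as Cldn5, Slc2a1 and Mfsd2a. APC, a part of the complex that degrades β-catenin, and β-catenin itself were altered here mainly in neurons. The values therefore describe the RNA of barrier genes in the whole tissue when the pathway was changed mainly in excitatory neurons. They do not show which cells made that RNA, and some members are also made outside vessels. In bulk tissue, fewer cells of a type and less RNA per cell cannot be told apart.

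The labels were first checked on the targeted gene. Apc was at 43.9 ± 4.21 FPKM (SD, n = 4) in the controls and 44.5 ± 5.11 FPKM (SD, n = 4) in the β-cat cOEs, but at 11.7 ± 3.88 FPKM (SD, n = 4) in the APC cKOs and 10.05 ± 2.30 FPKM (SD, n = 4) in the APC/β-cat cKOs. Ctnnb1 was at 159.9 ± 4.54 FPKM in the controls, 170.3 ± 10.8 in the APC cKOs, 159.7 ± 4.43 in the β-cat cOEs and 154.5 ± 2.55 in the APC/β-cat cKOs (SD, n = 4 each). Apc therefore checks the Apc alleles alone, and the labels of the Ctnnb1 alleles are not checked by these gene values. The depth of a library cannot be read from the table, which has no counts of fragments. Genes listed at 0 numbered 5726 to 6649 per library, with overlapping ranges in the 4 genotypes. By Xist and Y-linked genes, control replicate 1 and APC cKO replicate 1 were the 2 female libraries.

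No vascular gene passed the test against control in any line. With limma and a Benjamini-Hochberg adjusted p under 0.05, the count of members was 0 of 39 in the APC cKOs, where 0.0429% of all genes tested passed. It was 0 of 39 in the β-cat cOEs (0.0143% of all genes) and 0 of 39 in the APC/β-cat cKOs (0.207% of all genes). At an unadjusted p under 0.05, 8 members differed in the APC cKOs, beside 10% of all genes, 0 in the β-cat cOEs, beside 5.07%, and 5 in the APC/β-cat cKOs, beside 14.2%. All 8 in the APC cKOs were lower than control, where 5.19% of all genes were lower at that p: Ly6a, Ly6c1, Slco1a4, Rgs5, Abcb1a, Flt1, Foxq1 and Cd34. In APC/β-cat cKOs, Tjp1, Abcg2, Cd34 and Rgs5 were lower (7.03% of all genes) and Ly6a was higher (7.17% of all genes) at an unadjusted p. The 3 comparisons share their control libraries. Between lines, 1 member passed at an adjusted p: Ly6a was lower in the APC cKOs than in the APC/β-cat cKOs, a comparison in which 0.215% of all genes passed.

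**Figure D1:**
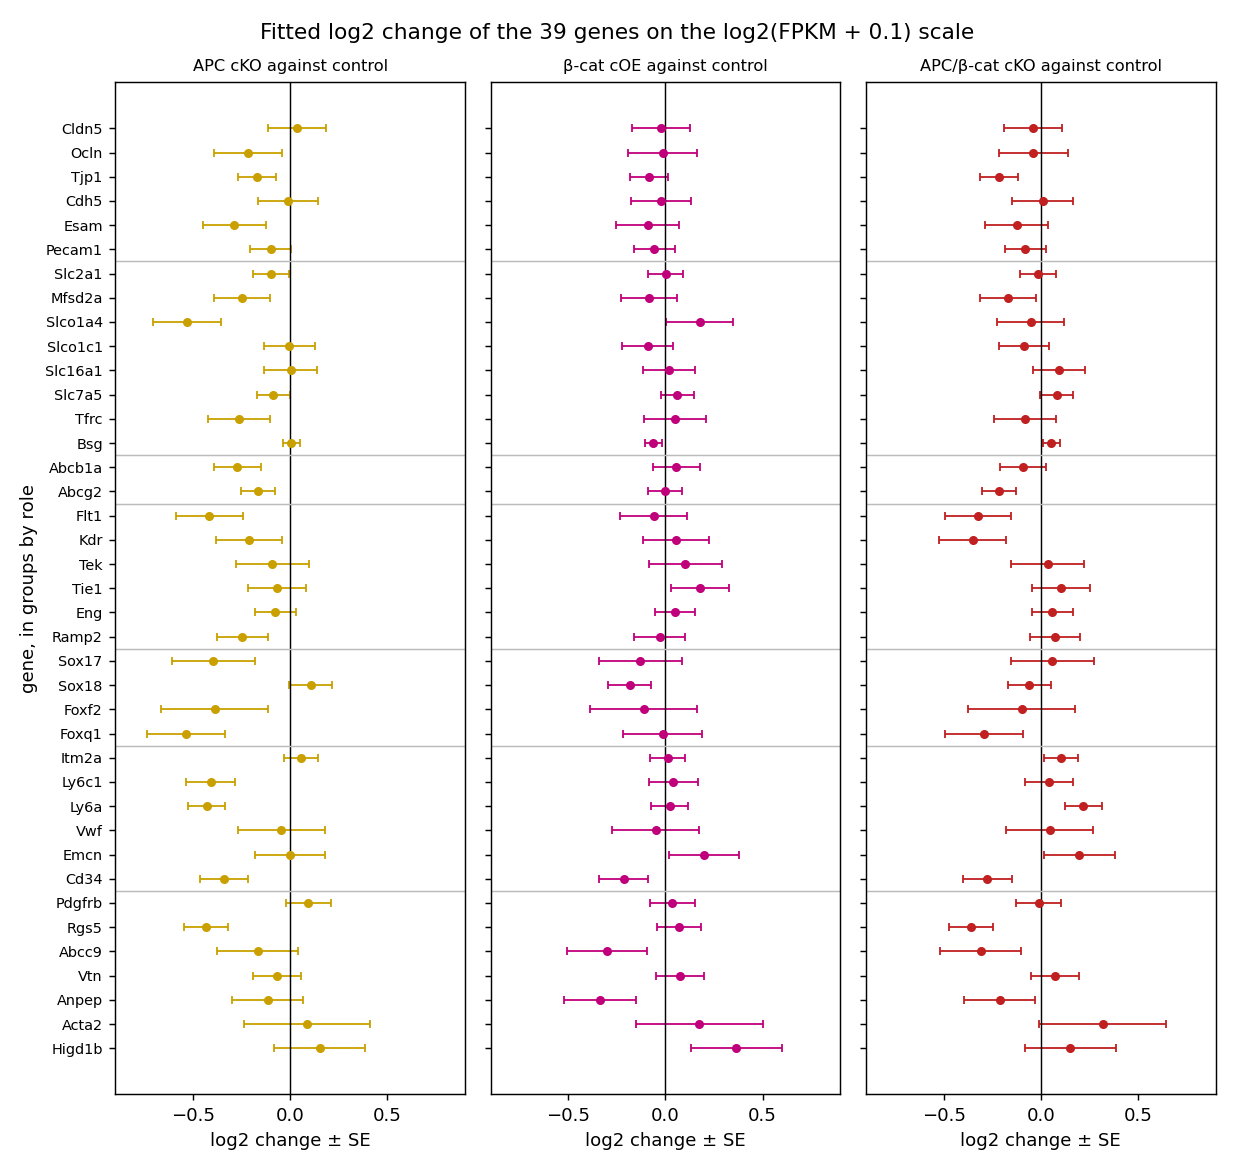
Fitted log2 change (x axis, log2(FPKM + 0.1) scale) of each of the 39 genes (y axis, grouped by role) in each line against control, with bars for the standard error. In APC cKOs 31 of 39 points lie left of 0, against 20 in the β-cat cOEs and 22 in the APC/β-cat cKOs, and no gene passed at an adjusted p in these 3 comparisons.

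The endothelial genes as a group lay a little below control in the APC cKOs and near control in the other lines. In APC cKOs 27 of 32 endothelial members were lower than control, beside 51.4% of all genes tested, with a median log2 change of -0.17 beside -0.0042 for all genes. In β-cat cOEs 18 of 32 were lower (51.5% of all genes), with a median of -0.01. In APC/β-cat cKOs 18 of 32 were lower (49.1% of all genes), with a median of -0.04. The 7 mural genes had a median of -0.07 in the APC cKOs, 0.07 in the β-cat cOEs and -0.01 in the APC/β-cat cKOs. These medians are descriptions of genes from the same libraries and carry no test.

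The APC cKO libraries were not alike. Of the 32 endothelial members, 5 exceeded their mean over the 16 libraries in APC cKO replicate 1 and 5 in replicate 3, while 18 did so in replicate 2 and 13 in replicate 4. In control replicates 1 to 4 these numbers were 17, 17, 20 and 26. They were 22, 15, 24 and 18 in the β-cat cOEs and 10, 16, 16 and 20 in the APC/β-cat cKOs. Leaving out APC cKO replicates 1 and 3, a setting chosen after the values were seen, left 19 of 32 endothelial members lower than control, beside 50.3% of all genes, with a median of -0.05. Replicate 1 was female and replicate 3 male, and the genes at 0 numbered 5875 and 5726 in them, beside 6063 and 5887 in replicates 2 and 4. Neuronal genes were also unlike: of 6 excitatory neuron genes 0, 6, 0 and 5 exceeded their mean in APC cKO replicates 1 to 4, and of 5 pan-neuronal genes 1, 4, 0 and 3 did. The part of sex, depth and neuronal RNA in this spread was not tested.

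**Figure D2:**
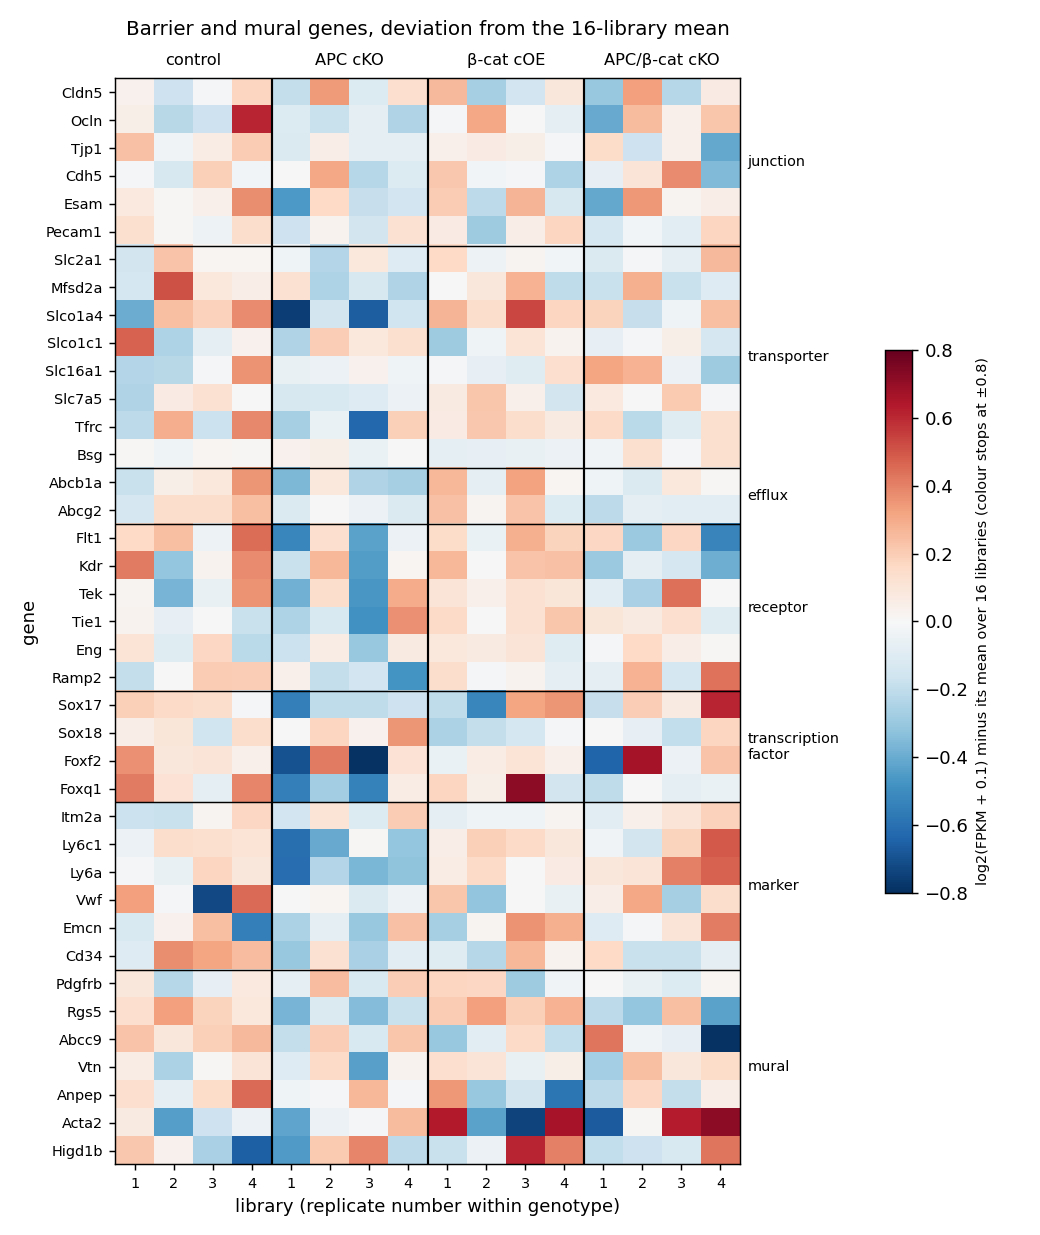
Each row is a gene, grouped by role, and each column a library, grouped by genotype. The colour is the library's log2(FPKM + 0.1) minus the gene's mean over the 16 libraries, and it stops at ±0.8. APC cKO replicates 1 and 3 are blue in most endothelial rows, with 5 of 32 above the mean in each, whereas replicates 2 and 4 have 18 and 13 above it.

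The junction genes seal the cleft between endothelial cells. Cldn5 encodes claudin-5, the main tight junction protein of brain vessels, and lies on chromosome 16 from 18776846 to 18778262 (mm10, as for all coordinates here). Its level was 18.1, 15.68, 17.5 and 19.9 FPKM in the controls and 15.4, 22.4, 16.4 and 19.4 FPKM in the APC cKOs. In β-cat cOEs it was 21.1, 14.7, 15.9 and 18.8 FPKM, and in the APC/β-cat cKOs 14.3, 22.2, 15.1 and 18.5 FPKM. The 4 groups overlapped throughout, and each line spread more widely than the controls. The log2 change of Cldn5 against control was 0.04 ± 0.15 (SE) in the APC cKOs, -0.02 ± 0.15 in the β-cat cOEs and -0.04 ± 0.15 in the APC/β-cat cKOs, with limma adjusted p = 0.956, 0.992 and 0.931.

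Occludin, the tight junction protein encoded by Ocln, was at 2.54 ± 0.755 FPKM (SD, n = 4) in the controls, and control replicate 4, at 3.63 FPKM, was the highest of all 16 libraries. Tjp1 encodes ZO-1, which ties junction proteins to actin and is also made by other brain cells. It was at 16.4 ± 1.38 FPKM (SD, n = 4) in the controls and 14.2 ± 2.37 FPKM (SD, n = 4) in the APC/β-cat cKOs, a log2 change of -0.21 ± 0.10 (limma adjusted p = 0.335). Replicate 4 of that line was the lowest library at 11.3 FPKM. VE-cadherin, encoded by Cdh5, is the adherens junction protein of endothelium and its group means lay between 2.32 and 2.40 FPKM. Esam, an endothelial adhesion molecule, had a log2 change of -0.29 ± 0.16 in the APC cKOs (limma adjusted p = 0.567), with replicate 1 at 4.64 FPKM and replicate 2 at 7.18 FPKM. The group means of Pecam1, the adhesion molecule CD31 of endothelial contacts, lay between 4.81 and 5.15 FPKM. All 6 junction genes were lower than control in the β-cat cOEs, 5 of 6 in the APC cKOs and 5 of 6 in the APC/β-cat cKOs, and none passed at an adjusted p in these comparisons. At an unadjusted p under 0.05 the counts were 0 in the β-cat cOEs (5.07% of all genes), 0 in the APC cKOs (10%) and 1 in the APC/β-cat cKOs (14.2%), the one being Tjp1.

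The transporters carry nutrients and hormones across the barrier. Slco1a4 encodes an organic anion carrier of the vessel wall (chromosome 6, 141805439 to 141856171) and had the second largest change in the APC cKOs after Foxq1. It was at 5.54, 8.65, 8.34 and 9.55 FPKM in the controls and at 4.30, 6.59, 4.60 and 6.54 FPKM in the APC cKOs. It was at 8.85, 8.07, 10.6 and 8.26 FPKM in the β-cat cOEs and at 8.30, 6.44, 7.15 and 8.65 FPKM in the APC/β-cat cKOs. Replicates 1 and 3 of the APC cKOs were the lowest of the 16 libraries, and control replicate 1 was the only control inside the APC cKO range. The log2 change in the APC cKOs was -0.53 ± 0.17 against control (limma adjusted p = 0.331) and -0.48 ± 0.17 against APC/β-cat cKOs (limma adjusted p = 0.344). Against β-cat cOEs it was -0.71 ± 0.17 (limma adjusted p = 0.258), and these groups did not overlap, as for 2.62% of all genes in that direction.

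The sequence before the Slco1a4 start is shown because this gene stood among the lowest in the APC cKOs, and because its window is one of those with a motif match. It is the 250 bases upstream of the RefSeq start (GRCm38.p6, chr6:141856221-141856470, minus strand, written 5′ to 3′), with capitals for the reverse complement of the SOX core ACAATG.
Slco1a4: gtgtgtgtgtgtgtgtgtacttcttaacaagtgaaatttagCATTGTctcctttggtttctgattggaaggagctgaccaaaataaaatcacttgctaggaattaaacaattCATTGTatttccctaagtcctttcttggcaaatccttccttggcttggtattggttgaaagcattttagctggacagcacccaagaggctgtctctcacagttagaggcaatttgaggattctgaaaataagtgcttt
The matches begin at -209 and -138 from the start. RefSeq gave 31 promoter windows for 26 of the 39 members, each of 250 bases before and 50 after a start. Both strands were searched for 3 cores that do not contain one another. The TCF/LEF core CTTTGAT, bound by the partners of β-catenin, was in 0 of 31 windows and in 3.73% of all 32851 windows. The ETS core CCGGAAG was in 0 of 31 and in 8.86% of all windows. The SOX core was in 2 of 31, those of Slco1a4 and Abcg2, and in 12.6% of all windows. The Abcg2 match begins at -158 of a start that lies upstream of the interval given for Abcg2 in the table. Members with no entry were Bsg, Ramp2, Sox17, Ly6a, Slc7a5, Foxq1, Cdh5, Vwf, Sox18, Higd1b, Pecam1, Pdgfrb and Esam.

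GLUT1, encoded by Slc2a1, is the glucose carrier of the barrier and is also made by astrocytes. It was at 35.0 ± 3.78 FPKM in the controls, 32.7 ± 2.98 in the APC cKOs, 35.0 ± 2.21 in the β-cat cOEs and 34.7 ± 4.24 in the APC/β-cat cKOs (SD, n = 4 each). Mfsd2a, the carrier of lipids with docosahexaenoic acid that also limits vesicle traffic, had log2 changes of -0.25 ± 0.14 in the APC cKOs, -0.08 ± 0.14 in the β-cat cOEs and -0.17 ± 0.14 in the APC/β-cat cKOs, with limma adjusted p = 0.578, 0.974 and 0.601. Control replicate 2 was its highest library at 13.1 FPKM, and the other controls ranged from 8.32 to 9.75 FPKM. Tfrc encodes the transferrin receptor for iron and ranged from 26.2 to 39.5 FPKM in the controls and from 19.5 to 34.6 FPKM in the APC cKOs, a log2 change of -0.26 ± 0.16 (limma adjusted p = 0.596). Its lowest library was again APC cKO replicate 3.

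The thyroid hormone carrier Slco1c1, shared by endothelium and astrocytes, had group means between 26.04 and 28.1 FPKM. Slc16a1, the lactate carrier MCT1, had means between 9.25 and 10.01 FPKM. Slc7a5, the large neutral amino acid carrier, was at 15.03 ± 0.383 FPKM in the APC cKOs and 16.9 ± 1.24 FPKM in the APC/β-cat cKOs (SD, n = 4 each). These groups did not overlap, as for 3.43% of all genes in that direction, and the log2 change was -0.17 ± 0.09 (limma adjusted p = 0.507). Bsg encodes basigin, the partner of MCT1, which many brain cells also make. It was the highest member in FPKM at 339 ± 4.92 in the controls and had a control coefficient of variation of 1.45%, the lowest of the 39. Bsg was at 325 ± 2.78 FPKM in the β-cat cOEs, below every control library, as for 1.62% of all genes, with a log2 change of -0.06 ± 0.04 (limma adjusted p = 0.950). The interval of Bsg in the table, chromosome 10 from 79697304 to 80369637, is far longer than its transcript of 1526 nucleotides, and how reads were assigned within it is not given in the sources used here.

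The efflux pumps return drugs and toxins to the blood. P-glycoprotein, encoded by Abcb1a, was at 5.86, 6.88, 7.08 and 8.53 FPKM in the controls and at 5.17, 7.05, 5.62 and 5.53 FPKM in the APC cKOs. The groups overlapped only through APC cKO replicate 2. The log2 change of Abcb1a was -0.27 ± 0.12 in the APC cKOs (limma adjusted p = 0.467), 0.05 ± 0.12 in the β-cat cOEs (adjusted p = 0.974) and -0.09 ± 0.12 in the APC/β-cat cKOs (adjusted p = 0.754). Of its stretches of 100 bases, 8.51% also occur in other genes such as its close copy Abcb1b, so its counting is uncertain there. Abcg2 encodes the pump BCRP and had a log2 change of -0.21 ± 0.09 in the APC/β-cat cKOs (limma adjusted p = 0.310). Its APC/β-cat cKO libraries were at 6.86, 7.51, 7.46 and 7.45 FPKM and its controls at 7.23, 8.77, 8.76 and 9.40 FPKM. Control replicate 1 alone fell within the range of that line.

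The 6 receptors of angiogenic and vessel-stabilizing ligands had control means from 1.43 FPKM for Tie1 to 15.7 FPKM for Ramp2, and 6 of 6 were lower than control in the APC cKOs, 2 of 6 in the β-cat cOEs and 2 of 6 in the APC/β-cat cKOs. None passed at an adjusted p, and the counts at an unadjusted p were 1, 0 and 0, beside 10%, 5.07% and 14.2% of all genes. Flt1, the decoy receptor for VEGF, was at 5.71, 6.04, 4.96 and 6.99 FPKM in the controls and at 3.52, 5.61, 3.78 and 4.94 FPKM in the APC cKOs. Replicates 1 and 3 were again the lowest of the APC cKOs, and replicate 2 lay inside the control range. The log2 change of Flt1 was -0.42 ± 0.17 in the APC cKOs (limma adjusted p = 0.435), and -0.32 ± 0.17 in the APC/β-cat cKOs (adjusted p = 0.400), where replicates 2 and 4 were at 4.14 and 3.51 FPKM.

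Kdr, the signalling receptor VEGFR2, was at 2.16 ± 0.183 FPKM in the β-cat cOEs and 1.61 ± 0.172 FPKM in the APC/β-cat cKOs (SD, n = 4 each). These groups did not overlap, as for 2.37% of all genes in that direction, with a log2 difference of 0.41 ± 0.17 (limma adjusted p = 0.369). Tek and Tie1 encode the receptor for angiopoietins and its partner, and their control means were 2.59 and 1.43 FPKM. In APC cKOs Tek was at 1.95, 2.84, 1.83 and 3.17 FPKM and Tie1 at 1.24, 1.36, 1.04 and 1.94 FPKM, so that both had their lowest value in replicate 3 and their highest in replicate 4. Endoglin, the TGF-β co-receptor encoded by Eng, had group means between 4.23 and 4.63 FPKM. Ramp2, the partner of the adrenomedullin receptor, had a log2 difference of -0.32 ± 0.13 between APC cKOs and APC/β-cat cKOs (limma adjusted p = 0.426), with the highest library, APC/β-cat cKO replicate 4, at 20.3 FPKM.

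The 4 transcription factors were the lowest endothelial group, with control means from 0.908 to 2.68 FPKM, so that a small absolute difference gave a large log2 change. Foxq1, a forkhead factor of brain endothelium, was at 1.17, 0.934, 0.806 and 1.15 FPKM in the controls and 0.553, 0.688, 0.558 and 0.897 FPKM in the APC cKOs. The groups overlapped only because APC cKO replicate 4 lay above control replicate 3. The log2 change was -0.54 ± 0.20 (limma adjusted p = 0.388). Of its stretches of 100 bases, 65.4% are shared with the annotated gene A530084C06Rik, so the value of Foxq1 is uncertain.

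Sox17, a factor of arterial identity, was at 0.959, 0.931, 0.922 and 0.820 FPKM in the controls and 0.537, 0.706, 0.707 and 0.728 FPKM in the APC cKOs. The groups did not overlap, as for 2.98% of all genes in the lower direction. Its log2 change was -0.40 ± 0.21 (limma adjusted p = 0.552), and an exact two-sided permutation test gave p = 0.0286, the smallest that 70 regroupings allow. Of its stretches, 22.4% are shared with the annotated gene Gm37587. Foxf2, a forkhead factor of pericytes and endothelium in development, ranged from 0.573 to 1.45 FPKM within the APC cKOs and from 0.645 to 1.75 FPKM within the APC/β-cat cKOs, wider than the 1.10 to 1.40 FPKM of controls. Sox18, a factor of vessel and lymphatic development, was one of the few higher in the APC cKOs, with a log2 change of 0.11 ± 0.11 (limma adjusted p = 0.774). Against β-cat cOEs it was higher by 0.29 ± 0.11 with no overlap, as for 2.58% of all genes in that direction (limma adjusted p = 0.511).

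The surface and secreted markers held the one call. Ly6a encodes Sca-1, a lipid-anchored surface protein of endothelium, and lies on chromosome 15 from 74994876 to 74997888. It was at 21.04, 20.4, 24.02 and 22.6 FPKM in the controls and at 13.9, 18.1, 16.5 and 17.0 FPKM in the APC cKOs. In β-cat cOEs it was at 22.2, 23.6, 21.3 and 22.3 FPKM, and in the APC/β-cat cKOs at 22.6, 22.9, 28.2 and 29.6 FPKM. All 4 APC cKO libraries were below the other 12, replicates 2 and 4 included, which sets Ly6a apart from Flt1 and Slco1a4, whose low values lay mostly in replicates 1 and 3. APC/β-cat cKO replicates 3 and 4 were above every other library, while replicates 1 and 2 lay inside the control range.

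Ly6a was lower in the APC cKOs than in the APC/β-cat cKOs by a log2 change of -0.65 ± 0.09 (limma adjusted p = 0.00794), which is 36.2% lower. It was past the threshold in 26 of 27 alternatives, and it lost the call when only these 2 groups entered the model (log2 change -0.65, limma adjusted p = 0.106). Against control the log2 change was -0.43 ± 0.09 in the APC cKOs (limma adjusted p = 0.204), 0.02 ± 0.09 in the β-cat cOEs (adjusted p = 0.983) and 0.22 ± 0.09 in the APC/β-cat cKOs (adjusted p = 0.324). Against β-cat cOEs it was -0.45 ± 0.09 in the APC cKOs (adjusted p = 0.166), from the fit without a block on title numbers. The control and β-cat cOE libraries did not overlap with APC cKOs either, as for 2.98% and 2.62% of all genes in that direction, and each exact two-sided permutation test gave p = 0.0286. Ly6a was also the 1 member with a difference among the 4 genotypes at an adjusted p (limma F test, adjusted p = 0.0260), beside 0.25% of all genes. That count became 0 with no trend, with a block on title numbers, and without any one of APC cKO replicates 1, 3 or 4 or β-cat cOE replicate 1. At an unadjusted p under 0.05 the members were Ly6a, Rgs5, Slco1a4 and Ly6c1, a count of 4 of 39 beside 12% of all genes.

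Ly6c1, a related surface protein of brain capillaries, lies 46128 bases from Ly6a, on chromosome 15 from 75044017 to 75048837. It was at 32.7, 37.3, 36.9 and 36.6 FPKM in the controls and at 22.3, 25.5, 34.04 and 27.3 FPKM in the APC cKOs. In β-cat cOEs it was at 35.1, 38.7, 37.7 and 36.1 FPKM, and in the APC/β-cat cKOs at 33.2, 30.6, 38.3 and 47.6 FPKM. In APC cKOs replicate 3 alone reached the control range, and in the APC/β-cat cKOs replicate 4 was the highest library. The log2 change of Ly6c1 in the APC cKOs was -0.41 ± 0.13 against control (limma adjusted p = 0.316) and -0.45 ± 0.13 against APC/β-cat cKOs (adjusted p = 0.208). It was -0.45 ± 0.13 against β-cat cOEs (adjusted p = 0.345). Of its stretches of 100 bases, 15.3% are shared with Ly6c2, which was at 0 to 0.290 FPKM in the 16 libraries.

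The 250 bases upstream of the outermost RefSeq start of Ly6c1 (GRCm38.p6, chr15:75048838-75049087, minus strand, 5′ to 3′) are shown because Ly6c1 was also low in the APC cKOs, and because the promoter table has no entry for Ly6a. They hold none of the 3 cores, so no letters are in capitals.
Ly6c1: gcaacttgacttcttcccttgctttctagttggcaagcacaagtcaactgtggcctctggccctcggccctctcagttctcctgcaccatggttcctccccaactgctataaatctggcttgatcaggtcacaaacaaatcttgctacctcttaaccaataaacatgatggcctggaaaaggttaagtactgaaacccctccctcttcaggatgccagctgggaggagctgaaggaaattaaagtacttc
Values of 2 other genes of this cluster stand beside these. Ly6e, which is made by many cell types, was at 66.2 ± 5.97 FPKM in the controls and 60.0 ± 3.46 FPKM in the APC cKOs (SD, n = 4 each). Ly6h, a neuronal member, was at 127 ± 10.3 FPKM in the controls and 149.8 ± 20.1 FPKM in the APC cKOs (SD, n = 4 each), and both were named after their values were seen.

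**Figure D3:**
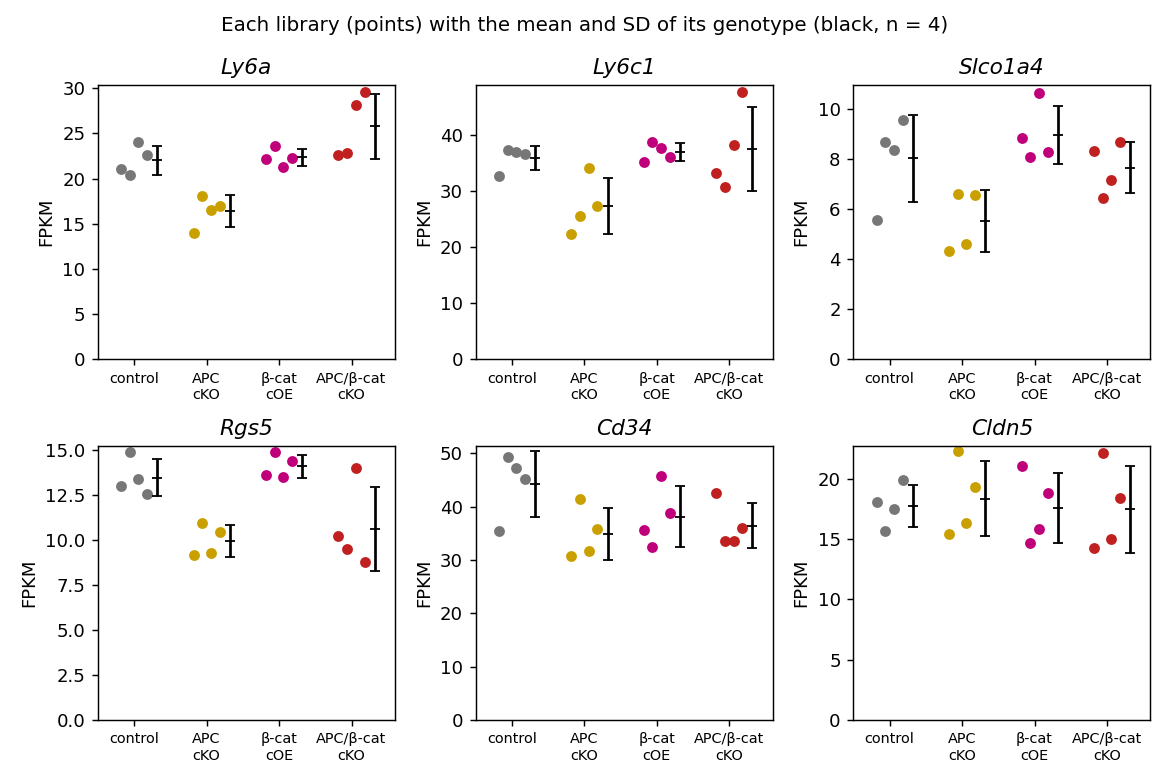
FPKM (y axis, from 0) of 6 genes in every library, by genotype (x axis), with the mean and SD of each group of 4 in black. The APC cKO points of Ly6a, from 13.9 to 18.1, lie below all the others. Those of Rgs5 lie below all controls, as for 2.98% of all genes, and those of Cldn5 overlap with every group.

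Cd34, an endothelial sialomucin, was at 35.4, 49.2, 47.3 and 45.2 FPKM in the controls, and at 30.8, 41.5, 31.7 and 35.7 FPKM in the APC cKOs. All 3 lines had lower means than controls, with log2 changes of -0.34 ± 0.13 in the APC cKOs, -0.22 ± 0.13 in the β-cat cOEs and -0.28 ± 0.13 in the APC/β-cat cKOs (limma adjusted p = 0.384, 0.950 and 0.339). Control replicate 1, a female library, lay inside the range of every line. Itm2a, a membrane protein enriched in brain endothelium, had group means between 44.0 and 47.2 FPKM. Vwf, the clotting factor carrier of larger vessels, had the widest control spread of the 39, a coefficient of variation of 35.4%, and ranged from 0.497 to 1.24 FPKM there. Endomucin, encoded by Emcn and found on capillaries and veins, had log2 changes of -0.0014 ± 0.18 in the APC cKOs, 0.20 ± 0.18 in the β-cat cOEs and 0.20 ± 0.18 in the APC/β-cat cKOs.

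Among the mural genes, Rgs5 had the lowest p in the APC cKOs. It encodes a regulator of G protein signalling that marks pericytes, and lies on chromosome 1 from 169655500 to 169693526. Its level was 13.0, 14.9, 13.4 and 12.5 FPKM in the controls and 9.13, 10.9, 9.27 and 10.4 FPKM in the APC cKOs. It was 13.6, 14.9, 13.5 and 14.4 FPKM in the β-cat cOEs and 10.2, 9.51, 14.0 and 8.75 FPKM in the APC/β-cat cKOs. The APC cKOs lay below every control and every β-cat cOE library, as for 2.98% and 2.62% of all genes in that direction. So did 3 of the 4 APC/β-cat cKO libraries, with replicate 3 inside the control range.

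Rgs5 had log2 changes against control of -0.43 ± 0.11 in the APC cKOs (limma adjusted p = 0.310), 0.07 ± 0.11 in the β-cat cOEs (adjusted p = 0.974) and -0.36 ± 0.11 in the APC/β-cat cKOs (adjusted p = 0.257). Without APC/β-cat cKO replicate 3, Rgs5 passed the threshold in the APC/β-cat cKOs against control, at -0.50 (limma adjusted p = 0.0284). It also passed then for the β-cat cOEs compared with the APC/β-cat cKOs, at 0.57 (adjusted p = 0.0110), and in the APC cKOs against β-cat cOEs, at -0.50 (adjusted p = 0.0287). With all libraries those last values were 0.43 ± 0.11 (adjusted p = 0.145) and -0.50 ± 0.11 (adjusted p = 0.230).

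The 250 bases upstream of the RefSeq start of Rgs5 (GRCm38.p6, chr1:169655251-169655500, plus strand, 5′ to 3′) are shown because Rgs5 was the mural gene with the lowest p in the APC cKOs. They hold none of the 3 cores.
Rgs5: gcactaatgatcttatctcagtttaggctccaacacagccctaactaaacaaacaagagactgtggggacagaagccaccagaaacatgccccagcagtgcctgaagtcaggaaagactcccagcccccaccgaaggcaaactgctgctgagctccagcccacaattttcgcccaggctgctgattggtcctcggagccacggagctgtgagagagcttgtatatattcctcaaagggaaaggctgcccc
The other 6 mural genes were not tested against Rgs5. Pdgfrb, the PDGF receptor that keeps pericytes on the vessel, was at 3.93 ± 0.402 FPKM in the controls, 4.21 ± 0.555 in the APC cKOs, 4.05 ± 0.588 in the β-cat cOEs and 3.90 ± 0.1604 in the APC/β-cat cKOs (SD, n = 4 each). Vtn, which encodes vitronectin and is abundant in brain pericytes, had log2 changes of -0.07 ± 0.12, 0.08 ± 0.12 and 0.07 ± 0.12 in the same lines. Abcc9, a potassium channel subunit of pericytes, had group means between 1.06 and 1.33 FPKM, with APC/β-cat cKO replicates ranging from 0.620 to 1.57 FPKM, and log2 changes of -0.17 ± 0.21, -0.30 ± 0.21 and -0.31 ± 0.21. Anpep, the aminopeptidase CD13, was lower than control in all 3 lines by log2 changes of -0.12 ± 0.18, -0.34 ± 0.18 and -0.21 ± 0.18. Higd1b, a mitochondrial gene of pericytes, was higher in all 3 lines by 0.15 ± 0.23, 0.36 ± 0.23 and 0.15 ± 0.23. Acta2, the smooth muscle actin of arterioles, ranged from 1.49 to 4.10 FPKM among β-cat cOEs and from 1.58 to 4.27 FPKM among APC/β-cat cKOs, wider than the 1.86 to 2.70 FPKM of controls. None of these 6 passed at an adjusted or an unadjusted p under 0.05 against control.

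The lines were also compared with each other. Between APC cKOs and APC/β-cat cKOs, which share the loss of Apc and differ in Ctnnb1, 26 of 32 endothelial members were lower in the APC cKOs, beside 50.3% of all genes, with a median log2 change of -0.11. At an unadjusted p under 0.05, 5 of 39 differed, all lower, beside 10.3% of all genes in either direction and 6.13% lower: Ly6a, Ly6c1, Slco1a4, Ramp2 and Sox17. Other cell types differed there too. All 6 oligodendrocyte genes were lower in the APC cKOs without overlap, as for 3.43% of all genes, and all 6 at an unadjusted p, with a median log2 change of -0.53 and a smallest limma adjusted p of 0.0560. Of 8 perivascular fibroblast and meningeal genes 7 were higher, with a median of 0.34. At an unadjusted p 4 of them were higher, beside 580 of all 13978 genes. All 7 of 7 microglial genes were lower, 2 at an unadjusted p (6.13% of all genes), with a median of -0.14. The part of these cell types in the vascular values was not tested. When APC cKOs were set against β-cat cOEs, the lines made to raise β-catenin, 25 of 32 endothelial members were lower in the APC cKOs, beside 50.2% of all genes. Here 0 of 39 passed at an adjusted p (0.0429% of all genes) and 7 at an unadjusted p (7.57% of all genes), with Sox18 higher (3.63% of all genes) and Slco1a4, Abcb1a, Foxq1, Ly6c1, Ly6a and Rgs5 lower in the APC cKOs (3.93%). With a block on title numbers, 0 passed at an adjusted p and 7 at an unadjusted p (5.97% of all genes), with Tfrc and Tie1 in place of Sox18 and Abcb1a. Between β-cat cOEs and APC/β-cat cKOs, 0 of 39 passed at an adjusted p (0.229% of all genes) and 4 at an unadjusted p (11.9% of all genes), Bsg lower (6.88%) and Abcg2, Kdr and Rgs5 higher (5.04%) in the β-cat cOEs. The groups of Bsg did not overlap there, as for 3.93% of all genes in the lower direction, and its log2 difference was -0.12 ± 0.04 (limma adjusted p = 0.321).

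Genes around the barrier were read from lists that do not hold the 39 members. Of 27 other endothelial genes tested, 21 were lower in the APC cKOs than in the controls (51.4% of all genes), 5 of them at an unadjusted p (5.19% of all genes) and none at an adjusted p. They were read in the same libraries as the members. The numbers of the 27 above their 16-library mean were 6, 15, 6 and 7 in APC cKO replicates 1 to 4. Car4, a carbonic anhydrase of brain capillaries, was at 19.3 ± 2.27 FPKM in the controls, 16.2 ± 1.41 in the APC cKOs, 18.3 ± 2.33 in the β-cat cOEs and 23.6 ± 1.74 in the APC/β-cat cKOs (SD, n = 4 each). Like Ly6a, Car4 passed the test between the APC cKOs and the APC/β-cat cKOs, lower in the former by -0.54 ± 0.10 (limma adjusted p = 0.0452). It was the 1 call among the 27 in that comparison, where 0.215% of all genes passed. Car4 lay close to the threshold, and its values in the alternative fits were not read.

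Of 18 genes of Wnt signalling at the barrier, 14 had higher means in the APC cKOs than in the controls, 3 of them at an unadjusted p under 0.05, beside 4.82% of all genes, and 0 at an adjusted p. Notum, a secreted enzyme that inactivates Wnts and is itself a Wnt target, averaged 1.15 FPKM in the controls and 2.82 in the APC cKOs. Its log2 change was 1.02 ± 0.35 (SE). APC cKO replicates 1 to 4 were at 5.31, 1.11, 2.88 and 1.98 FPKM. Replicate 2 lay inside the control range of 0.926 to 1.24 FPKM. The Wnt target Axin2 had log2 changes of 0.32 in the APC cKOs, 0.05 in the β-cat cOEs and -0.15 in the APC/β-cat cKOs. Those of the receptor gene Fzd6 were 0.60, 0.42 and 0.55 in the same lines, so its rise was not particular to the APC cKOs. Control replicate 1 of Fzd6, at 1.94 FPKM, lay inside the APC cKO range of 1.63 to 2.27 FPKM. Which cells made the RNA of these genes cannot be told from bulk tissue. Among 12 angiogenic and mural ligands and their partners, Angpt1 and Angpt2, the ligands of the Tek receptor, were higher in the APC cKOs at an unadjusted p by 0.50 and 0.66, and 0 passed at an adjusted p. Of 8 genes of caveolae, fenestrae and leukocyte adhesion, none differed in the APC cKOs at an unadjusted p (10% of all genes). Such genes mark a leaky or inflamed barrier. Plvap, the fenestral diaphragm protein, was at 6.04 FPKM in the controls and 6.44 in the APC cKOs.

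Markers of other cell types also had different means in the APC cKOs, where 5.19% of all genes were lower and 4.82% higher at an unadjusted p. All 6 oligodendrocyte genes were lower than control, 4 of them at an unadjusted p, with summed levels of 626 to 751 FPKM in the APC cKOs and 712 to 1089 FPKM in the controls. In APC/β-cat cKOs all 6 were higher than control, 3 at an unadjusted p (7.17% of all genes in that line), with summed levels of 914 to 1032 FPKM. Of 8 perivascular fibroblast and meningeal genes, 6 were higher in the APC cKOs than in the controls, 2 at an unadjusted p, with summed levels of 50.9 to 68.4 FPKM beside 40.1 to 63.8 FPKM. Of 9 astrocyte genes 6 were higher in the APC cKOs, 2 at an unadjusted p, with summed levels of 725 to 840 FPKM beside 700.3 to 815 FPKM. The 6 excitatory neuron genes were all lower in the APC cKOs, 1 at an unadjusted p, with summed levels of 1677 to 2109 FPKM beside 1953 to 2136 FPKM. The other lines shared some of these directions. In β-cat cOEs 7 of the 8 perivascular and meningeal genes and 7 of the 9 astrocyte genes were higher than control. In APC/β-cat cKOs these counts were 1 of 8 and 4 of 9. Of the 6 excitatory neuron genes 5 were lower in both lines. At an unadjusted p 2 and 0 of them were lower, beside 5.07% and 14.2% of all genes in either direction. None of these genes passed at an adjusted p against control, and their part in the vascular values was not tested.

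**Figure D4:**
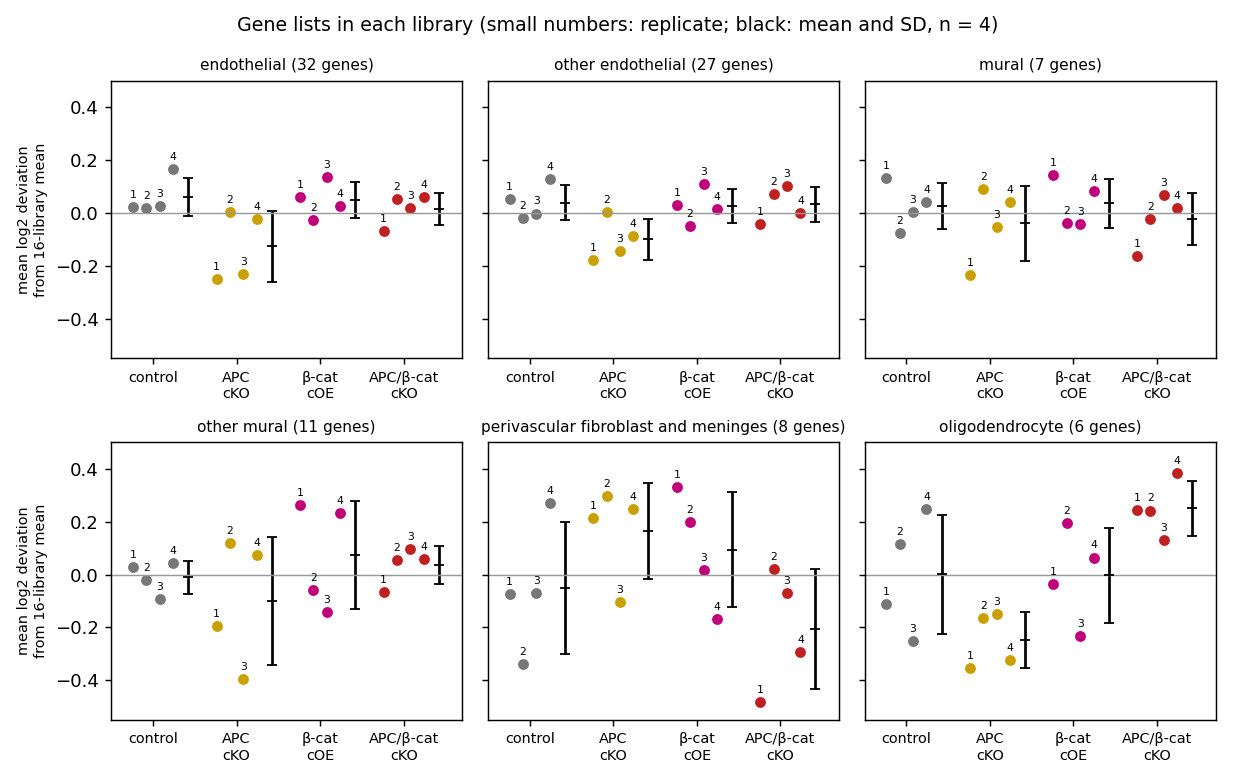
Mean log2 deviation from the 16-library mean (y axis) of 6 gene lists in every library (points, with small replicate numbers), by genotype (x axis), with the mean and SD of each group of 4 in black. In the endothelial panel APC cKO replicates 1 and 3 are lowest, at -0.25 and -0.23, and in the oligodendrocyte panel all APC cKO points lie below 0 and all APC/β-cat cKO points above it.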

How the data were processed

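RNA from the PFC of 16 mice, 4 per genotype, was prepared with a stranded poly(A) mRNA kit and sequenced by the authors with paired ends. The submitters' processing notes name bcl2fastq, TopHat2 2.0.10, Cuffdiff 2.1.1 and the mm10 genome. The deposited table gives 1 log2 value per gene and library, read here as log2(FPKM + 1); neither the base nor the offset is stated. FPKM times transcript length in kilobases summed to between 1254523 and 1330678 per library under this reading and to over 11022537 under natural logs, and FPKM computed with exact lengths sums to the scaling constant, which only the first reading comes near. The design had assumed that the authors deposited FPKM, so values were turned back into FPKM and the planned test was kept. Interval and status columns are empty, and depth is unknown, so no counting interval is given.

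Libraries were grouped by their genotype labels. The labels do not say which libraries share a litter or a batch. The p-values set group differences against the spread between these libraries, and litters or batches that libraries share are not accounted for. Genes whose mean reached 0.5 FPKM, 13978 in number, were fitted with limma 3.58.1 (R 4.3.3; lmFit, contrasts.fit, eBayes with trend) on log2(FPKM + 0.1), all 4 genotypes in one model with 12 residual degrees of freedom, and p-values were adjusted by Benjamini-Hochberg over all genes. Fold changes on this scale understate changes of low genes. Levels of different genes were compared only in FPKM. Exact two-sided permutation tests of single genes used 70 regroupings, with a smallest p of 0.0286, and are unadjusted. The script was tested on simulated data. Summaries and plots came from matplotlib 3.10.9, numpy 2.4.6, pandas 2.3.3 and Python 3.11.15. Promoters are from RefSeq (GRCm38.p6). Of 21 pairs of libraries with the same number in their titles, 4 had a correlation of deviations over 0.1. For APC cKO with β-cat cOE all 3 pairs did (0.111 to 0.322). The numbers therefore count as pairing in that comparison and its blocked count is given, while in the other comparisons they do not. Single-gene values and exact tests of APC cKO against β-cat cOE were not blocked and leave this pairing out.

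All 39 members are named. Of every other list at most 4 genes are named, those with the largest moderated statistic against control. Members, lists and tests were chosen with earlier results of these data known. The alternatives were other pseudocounts, filters and scalings, no trend, sex as a covariate, a replicate block, only the groups compared, other thresholds, and each library left out.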

Additional observations from a re-analysis of the deposited data

Results flagged for a closer look

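Ly6a differed between the lines that lack Apc, with a limma adjusted p of 0.00794 for APC cKO against APC/β-cat cKO, and its libraries are given above.

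In 9 of 156 groups of 4 libraries 1 library stood far from the rest, where 7.8 are given by chance. The gap of that library, as a share of the group's range, was 0.946 for Anpep and 0.888 for Sox17 in the APC cKOs, and 0.849 for Kdr in the β-cat cOEs. In the APC/β-cat cKOs it was 0.915 for Abcg2, 0.901 for Higd1b and 0.856 for Mfsd2a. In the controls it was 0.874 for Bsg, 0.849 for Ly6c1 and 0.834 for Esam. The Sox17 library was APC cKO replicate 1, at 0.537 FPKM, and the Ly6c1 library was control replicate 1, at 32.7 FPKM.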

How the results depend on the processing

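In the 6 comparisons the main counts of members called were 0 against control in each line, 1 in APC cKO against APC/β-cat cKO, and 0 between the other lines. At an unadjusted p they became 8 in APC cKO against control, 5 in APC/β-cat cKO against control, 5 in APC cKO against APC/β-cat cKO, 4 in β-cat cOE against APC/β-cat cKO and 7 in APC cKO against β-cat cOE. With only the 2 groups in the model, APC cKO against APC/β-cat cKO gave 0 members, with Ly6a at -0.65 (limma adjusted p = 0.106). The 1 member with any difference among genotypes became 0 with no trend and 0 with the replicate block, and leaving out single libraries gave 0 to 1. The block on title numbers moved the count of endothelial members lower in APC cKOs from 27 to 29. In the paired comparison of APC cKO with β-cat cOE it left 0 members called, with an endothelial median of -0.14, and it changed no other count of calls at an adjusted p. At a mean of at least 2 FPKM the mural median in APC cKO against control was 0.087. With 1 library left out, the counts of members called ranged from 0 to 1 in APC/β-cat cKO against control, in β-cat cOE against APC/β-cat cKO and in APC cKO against β-cat cOE, each through Rgs5 without APC/β-cat cKO replicate 3. The mural medians then ranged from -0.077 to 0.12 in APC cKO against APC/β-cat cKO and from -0.15 to 0.070 in APC cKO against β-cat cOE. The endothelial median in APC cKO against control ranged from -0.20 to -0.13, with 24 to 29 of 32 lower. Without APC cKO replicates 1 and 3 that number was 19. The cause of these moves was not tested. Single-gene values were counted only for genes and comparisons with an unadjusted limma p under 0.05 in the main fit. Of these, 775 kept their direction and side of the threshold, 3 became called, 1 lost its call, and 0 turned sign. That choice made a turned sign unlikely, and the other values of the members were not counted. Without fragment counts, the precision of the low transcription factors cannot be given.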

Other observations

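Other vascular lists were read in the same way, and 0 of their genes passed at an adjusted p against control in any line. Gkn3, an arterial gene, was at 2.87 FPKM on average in the controls, 3.62 in the APC cKOs, 3.604 in the β-cat cOEs and 6.14 in the APC/β-cat cKOs, a log2 change in that last line of 1.09 (limma, unadjusted p = 0.00089). Col4a1 and Col4a2, the collagen IV chains of the vascular basement membrane, were lower in the APC/β-cat cKOs than in the controls by -0.36 and -0.30 (limma, unadjusted p = 0.0042 and 0.019). Of 3 venous genes none differed from control at an unadjusted p in any line, nor did any of 11 other mural genes or 3 red blood cell genes. Beside these stand 10%, 5.07% and 14.2% of all genes in the APC cKOs, β-cat cOEs and APC/β-cat cKOs. Between lines, 1 of the 11 other mural genes was lower in the APC cKOs than in the β-cat cOEs (3.93% of all genes). Against the APC/β-cat cKOs 1 was lower too (6.13% of all genes). Of 7 microglial genes 6 were higher in the APC cKOs, and all 7 in the APC/β-cat cKOs, where 3 reached an unadjusted p under 0.05 (7.17% of all genes). Slc6a13 and Col1a1, of perivascular and meningeal fibroblasts, were higher in the APC cKOs by 0.69 and 0.58 (limma, unadjusted p = 0.0027 and 0.0092), and Slc6a13 was then at 8.56 FPKM beside 5.39 FPKM in the controls. Of 4 choroid plexus genes, Kl was higher at an unadjusted p in the APC cKOs, by 0.51.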
